A study of Mus musculus with 12 samples.

Results

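The genes described here are 10 genes of cholesterol export and high-density lipoprotein (HDL) handling in the mouse liver. They are the liver X receptors Nr1h3 (LXRα) and Nr1h2 (LXRβ), the sterol exporters Abca1, Abcg1, Abcg5 and Abcg8, the phospholipid-remodelling enzyme Lpcat3, and the HDL genes Scarb1, Lcat and Pltp. They were chosen by name and matched by Ensembl identifier, and all 10 were found among the 49398 genes of the gene table and among the 13814 genes that had enough reads to be tested. Messenger RNA was sequenced from 12 livers of wild-type C57BL/6J mice of both sexes, which were 9 months old when an 8 week feeding period on the purified AIN-93G diet began. The control diet held 0%, and the other diets 1% or 5% by weight, of an oil concentrate of VLCPUFA, polyunsaturated fatty acids with very long chains. The livers sequenced for each diet came from 4 mice, 2 females and 2 males, and all these mice were fasted for 5 hours before the liver was taken. Nothing in the labels says how the mice were housed or at what hour each liver was taken.

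LXRα and LXRβ are nuclear receptors that bind oxidised forms of cholesterol and, together with RXR, switch on genes that remove sterol from cells. ABCA1 and ABCG1 pass cholesterol and phospholipid to HDL particles, while ABCG5 and ABCG8 join into a single pump that moves sterol from the hepatocyte into bile. LCAT esterifies the cholesterol of HDL in plasma, PLTP moves phospholipid between lipoproteins, and the receptor SR-BI, encoded by Scarb1, takes cholesterol ester from HDL into the liver.

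Abcg5 and Abcg8 lie head to head, and the stretch between and around their starts is shown because these genes had the smallest unadjusted p values among the 10 in a comparison of diets. RefSeq places the start of Abcg5 at chr17:84683011 on the minus strand and a start of Abcg8 at chr17:84683121 on the plus strand, 110 bases apart (GRCm38.p6). The stretch held by both promoter windows is chr17:84682962-84683170, 209 bases of the plus strand. Capitals mark the motif AGATAA, the core read by GATA factors, on either strand.
Abcg5 and Abcg8 shared stretch: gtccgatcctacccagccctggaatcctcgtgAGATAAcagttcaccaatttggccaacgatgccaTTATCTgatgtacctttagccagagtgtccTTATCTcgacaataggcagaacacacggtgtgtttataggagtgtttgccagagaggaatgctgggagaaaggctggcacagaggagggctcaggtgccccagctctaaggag
The stretch held 3 matches. Of 32851 RefSeq promoter windows of 300 bases, each running from 250 bases before to 50 after a start, 11.2% held at least 1 match, 1.14% at least 2 and 0.107% at least 3. The motif was chosen after the sequence had been seen, and a match is a description of the letters only.

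LXR with RXR binds a pair of AGGTCA half-sites 4 bases apart, the element called DR4. Searched on both strands as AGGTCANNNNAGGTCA, the exact element stood in 0.0152% of all windows. Windows were found in the RefSeq table for 8 of the 10 genes, 10 windows in all. None of these 10 held the element exactly or with up to 2 mismatches, against 3.02% of all windows with up to 2. The Abca1 window is shown because the gene is the best known LXR target of the group, and capitals mark its closest match, with 3 mismatches, a distance reached in 21.9% of all windows (chr4:53159846-53160145, minus strand, GRCm38.p6).
Abca1 promoter window: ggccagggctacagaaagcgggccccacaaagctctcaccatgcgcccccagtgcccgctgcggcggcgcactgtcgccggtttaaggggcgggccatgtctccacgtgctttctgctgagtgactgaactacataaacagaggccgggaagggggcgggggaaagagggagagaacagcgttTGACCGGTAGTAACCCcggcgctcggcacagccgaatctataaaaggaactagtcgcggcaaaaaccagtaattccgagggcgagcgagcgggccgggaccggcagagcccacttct
The mismatch limits were set after the sequences had been seen, and elements outside these windows were not searched. A mismatch count is a description of the letters only, and whether LXR binds any of these stretches was not tested.

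Libraries held 5291385 to 15674130 estimated reads. Levels are given as CPM, a gene's reads relative to the depth of its library, with edgeR's TMM factors applied, and differences as log2 fold changes ± SE from edgeR's quasi-likelihood fit of all 12 livers with sex as a term. Summed hepatocyte markers ran from 103473 to 178886 CPM in controls, from 101240 to 119821 at 1% oil and from 90134 to 106567 at 5% oil. Summed Kupffer cell markers ran from 290 to 615, from 153 to 397 and from 152 to 373 CPM, and 0 of the 10 passed the test in any diet comparison. Over all genes 2.46% passed at 5% against control, 0.224% at 1% against control and 1.33% at 5% against 1%. Summed sinusoidal endothelial markers ran from 165 to 285 CPM in controls, from 212 to 322 at 1% and from 156 to 206 at 5% oil. The groups on 1% and 5% oil did not overlap, as was so for 7.68% of all single genes, and 0 of the 8 markers passed. Their part in the results below was not tested, and in bulk tissue fewer cells of a type and less RNA per cell cannot be told apart. Red cell markers summed to 241 to 515 CPM in controls and 104 to 221 at 5% oil. Of these 5 markers 1 was lower at 5% against control, where 2.46% of all genes passed. Of 17 core clock and clock output genes, 7 rose and 4 fell at 5% oil against control, where 2.46% of all genes passed, among them Bhlhe41, a clock repressor, at 4.99 ± 0.59 (edgeR adjusted p = 0.000872), and Cry1 at -1.83 ± 0.26 (edgeR adjusted p = 0.00282). At 1% against control 1 of these 17 rose and 0 fell, where 0.224% of all genes passed. There 11 of the 17 had an edgeR unadjusted p under 0.05, against 11.1% of all genes. At 5% against 1% 2 rose and 0 fell (1.33% of all genes passed), and 9 were under that unadjusted limit, against 17.8%. The part of the clock genes in the results was not tested either.

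None of the 10 genes passed the threshold of an adjusted p of 0.05 by edgeR in any comparison of diets. At 5% oil against control 0 of 10 passed, where 2.46% of all genes did, and at an unadjusted p under 0.05 there was 1, Pltp, against 14.6% of all genes. At 1% oil against control 0 of 10 passed against 0.224% of all genes, and 2 were under the unadjusted limit, Abcg5 and Abcg8, against 11.1%. Between 5% and 1% oil 0 of 10 passed against 1.33%, and 4 were under the unadjusted limit, Abca1, Abcg5, Abcg8 and Scarb1, against 17.8%. For a difference among the 3 diets of any kind 0 of 10 passed against 2.72%, with 3 under the unadjusted limit against 17.9%. DESeq2, which called more genes throughout, passed 0 of the 10 at 5% against control (5.42% of all genes), 2 at 1% against control (1.93%), 1 at 5% against 1% (5.06%) and 2 for any difference (7.77%). Limma voom and limma trend on the deposited CPM passed 0 in each of these comparisons. Over all genes limma trend passed 54 at 1% against control and 280 at 5% against 1%. Its counts over all genes in the other comparisons, and those of limma voom, are not given here. These 0 counts therefore have no share of all genes beside them, and how far they inform cannot be judged. The median log2 fold change of the 10 genes was 0.08 at 5% against control, 0.04 at 1% against control and -0.08 at 5% against 1%, beside 0.01, 0.00 and 0.00 over all genes tested.

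**Figure D1:**
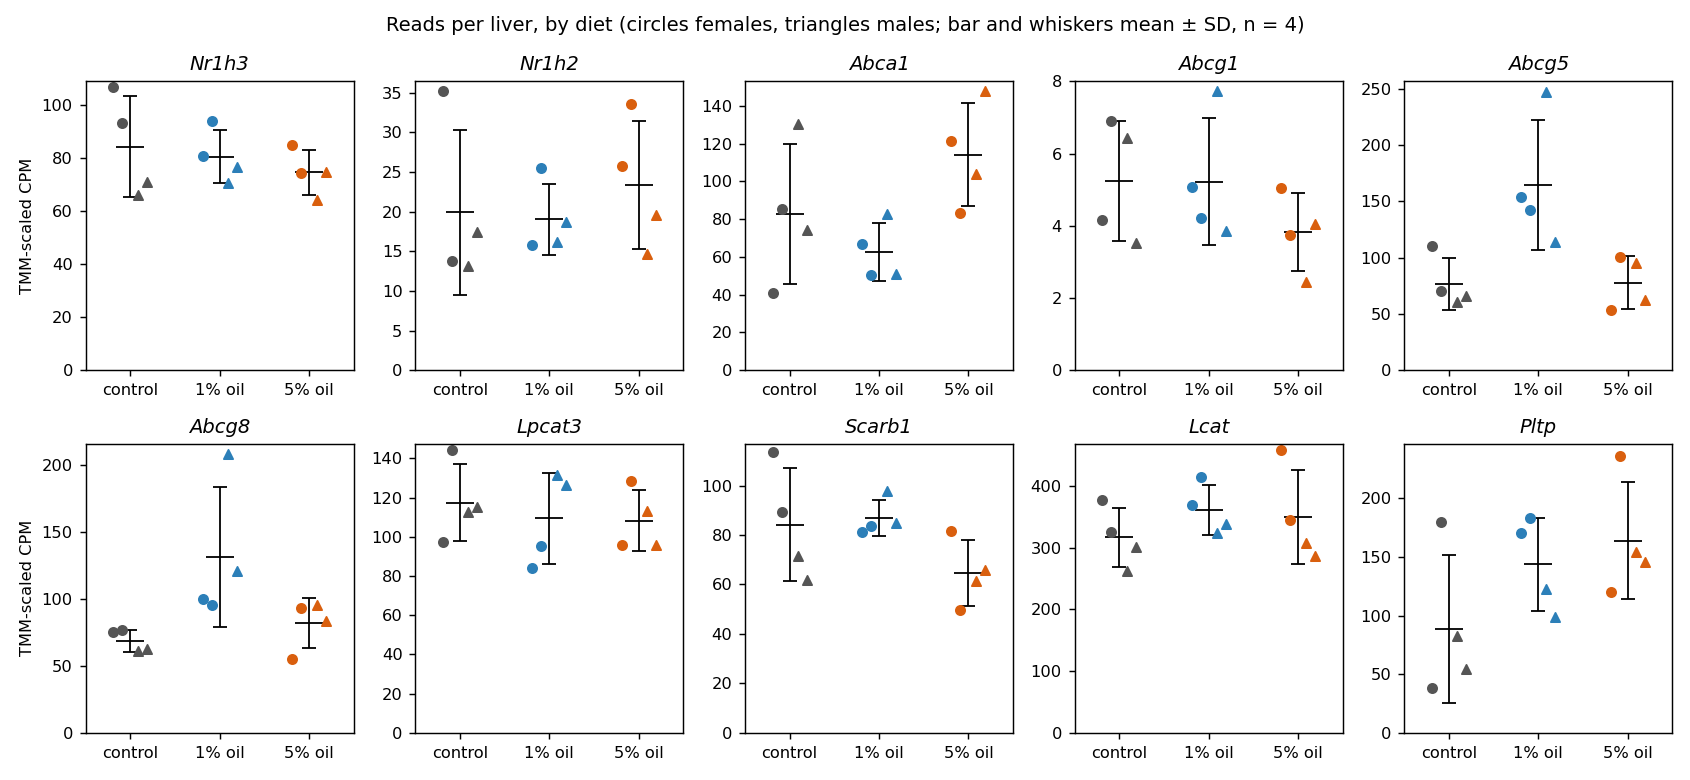
TMM-scaled CPM of each of the 10 genes (vertical axes, each from 0) in the 12 livers by diet; circles are females, triangles males, and the bars and whiskers are the mean ± SD of 4 livers. The 4 livers on 1% oil lie above all 4 controls for Abcg5 and Abcg8, and the groups overlap for the other genes in that comparison.

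Abcg5 and Abcg8 had their highest levels at 1% oil. Abcg5 measured 110, 70.7, 60.2 and 65.7 CPM in controls (females N979 and N980, males N967 and N968), 154, 142, 247 and 114 at 1% oil (the female pair N983, N984, then the male pair N971, N972) and 53.2, 101, 95.4 and 62.1 at 5% oil (females N987 and N988, males N975 and N976). All 4 livers on 1% oil lay above every other liver, and the highest was the male N971. Against control the difference at 1% was 1.11 ± 0.29, with a 95% interval of 0.49 to 1.73 (edgeR adjusted p = 0.152, unadjusted 0.00197). At 5% against 1% it was -1.08 ± 0.29, with an interval of -1.70 to -0.47 (edgeR adjusted p = 0.0829), and at 5% against control 0.03 ± 0.28, with an interval of -0.59 to 0.64.

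Abcg8, the other unit of the pump, measured 75.1, 76.9, 61.3 and 62.3 CPM in controls, 100.04, 95.6, 208 and 121 at 1% oil and 54.9, 92.9, 95.6 and 83.8 at 5% oil, with the livers in the same order. The 1% livers again lay above all controls, with N971 highest, while the 5% livers overlapped both other diets. The difference was 0.89 ± 0.24 at 1% against control (interval 0.37 to 1.40, edgeR adjusted p = 0.164, unadjusted 0.00241), -0.66 ± 0.24 at 5% against 1% (edgeR adjusted p = 0.169) and 0.22 ± 0.24 at 5% against control (edgeR adjusted p = 0.756). Groups of 4 that did not overlap were found for these 2 of the 10 genes at 1% against control, where 3.85% of all genes had them. At 5% against 1% they were found for 2 of 10, Abcg5 and Abca1, against 7.68% of all genes, and at 5% against control for 0 of 10 against 6.1%.

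Whether the 1% difference passed depended on the test and on single libraries. DESeq2 gave adjusted p values of 0.0128 for Abcg5 and 0.0276 for Abcg8 at 1% against control, and 0.00768 for Abcg5 at 5% against 1%. With the share of reads on 4 nuclear noncoding RNAs as a term, the edgeR adjusted p of Abcg5 was 0.0398 and 0.0146 in these comparisons; that share ran from 0.0286 to 0.0936% in controls, from 0.0235 to 0.0716% at 1% and from 0.0264 to 0.140% at 5% oil. Without control N979, which had the fewest reads and the highest share among controls, Abcg5 passed at 1% against control (1.33, edgeR adjusted p = 0.0459) and at 5% against 1% (edgeR adjusted p = 0.0456); without N975 it passed at 5% against 1% (edgeR adjusted p = 0.0474). Without N971 the differences at 1% against control were 0.79 for Abcg5 and 0.62 for Abcg8, the smallest of the 12 fits that each left out 1 liver.

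For Abcg8 the estimates of the 2 sexes differed in size, each from 2 livers a diet, but the sex difference did not pass. At 1% against control Abcg8 differed by 1.41 ± 0.30 in males and by 0.36 ± 0.29 in females. The female minus male difference was -1.05 ± 0.41 (unadjusted p = 0.0264 in edgeR, adjusted p = 1.00), and ran from -1.39 to -0.61 with 1 liver left out. For Abcg5 the same values were 1.52 ± 0.41 in males and 0.71 ± 0.40 in females. Over the 10 genes 0 passed for a sex difference in the response to 1%, as did 0% of all genes, and 1, Abcg8, was under the unadjusted limit, against 3.74%. For the response to 5% oil 0 passed, as did 0% of all genes, and 0 were under the unadjusted limit, against 4.67%.

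Across the 12 livers the log2 CPM of Abcg5 and Abcg8 went together, with Pearson's r = 0.881 (permutation p = 0.00022, adjusted 0.00132 over 6 relations) and Spearman's rho = 0.846 (permutation p = 0.0009, adjusted 0.0027). Without N971 and N987, the livers farthest from the median of Abcg5, r was 0.716 (permutation p = 0.0216, adjusted 0.0324). With each value centred on the mean of its diet and sex, r was 0.885. The 2 livers of each group then mirror each other, which leaves 6 independent values, and an exact test that swapped livers only within groups gave p = 0.156 (adjusted 0.156; the smallest it can give is 0.0312), so the relation did not pass within groups. The ratio of Abcg5 to Abcg8 CPM ran from 0.741 in N976 to 1.54 in N983. A further RefSeq start of Abcg8 lies at chr17:84676302 (GRCm38.p6), past the start of Abcg5 on the opposite strand. Whether the authors' counting used the strand is not given in the sources used here, so reads from any overlap of these genes cannot be told apart.

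**Figure D2:**
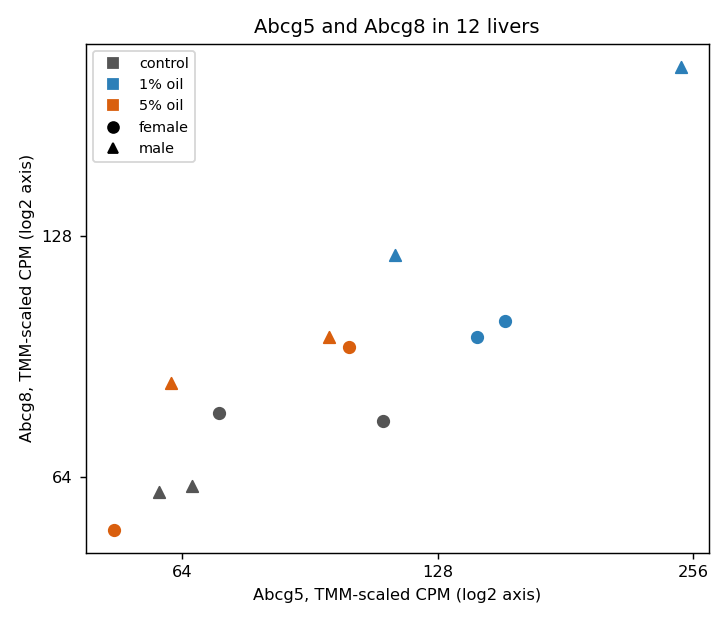
Abcg5 (horizontal) against Abcg8 (vertical), TMM-scaled CPM on log2 axes, 1 point per liver with colour for diet and shape for sex. The 4 livers on 1% oil have the 4 highest Abcg5 values, with male N971 at 247 and 208 CPM.

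Abca1, the exporter that starts HDL formation, measured 40.8, 85.4, 131 and 74.1 CPM in controls, 66.7, 50.3, 82.9 and 50.9 at 1% oil and 122, 83.2, 104 and 148 at 5% oil. The controls spanned nearly the whole range, and the lowest 5% liver (83.2) stood just above the highest 1% liver (82.9). The difference was 0.86 ± 0.27 at 5% against 1% (interval 0.27 to 1.44, edgeR adjusted p = 0.134), 0.49 ± 0.27 at 5% against control (interval -0.09 to 1.07, edgeR adjusted p = 0.451) and -0.37 ± 0.27 at 1% against control (interval -0.95 to 0.22, edgeR adjusted p = 0.646). The mean of Abca1 was lowest at 1% oil (62.7 CPM, against 82.7 in controls), where the means of Abcg5 and Abcg8 were highest. The lowest single liver was the control N979, at 40.8 CPM. The diet comparisons share livers, and no test set the genes against each other. Abcg1, which passes cholesterol to larger HDL particles, was the scarcest of the 10, with 21 to 91 reads per liver. It measured 4.2, 6.9, 6.4 and 3.5 CPM in controls, 5.1, 4.2, 7.7 and 3.8 at 1% and 5.1, 3.8, 2.4 and 4.1 at 5% oil. The 3 diets overlapped, and the difference at 5% against control was -0.45 ± 0.31 (interval -1.12 to 0.22, edgeR adjusted p = 0.581).

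Neither receptor passed in a comparison of diets. Nr1h3 measured 107, 93.3, 66.1 and 71.0 CPM in controls, 80.8, 94.0, 70.6 and 76.8 at 1% and 85.0, 74.4, 64.4 and 74.8 at 5% oil. In controls and at 1% oil both females lay above both males. The diet differences were -0.16 ± 0.14 at 5% (interval -0.46 to 0.15, edgeR adjusted p = 0.697) and -0.05 ± 0.14 at 1% against control (interval -0.35 to 0.25, edgeR adjusted p = 0.922). Nr1h2 was lower, with 35.2, 13.8, 13.2 and 17.4 CPM in controls, 15.8, 25.5, 16.1 and 18.6 at 1% and 25.7, 33.5, 14.7 and 19.5 at 5% oil. Females held the highest value in each diet, and the diets overlapped. Its differences were 0.23 ± 0.27 at 5% (interval -0.34 to 0.81) and -0.02 ± 0.27 at 1% against control (interval -0.60 to 0.56).

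Lpcat3, which puts polyunsaturated acyl chains into phospholipids and is itself an LXR target, measured 97.4, 144, 113 and 115 CPM in controls, 84.1, 95.6, 132 and 126 at 1% and 95.6, 129, 113 and 96.1 at 5% oil. The diets overlapped throughout. Differences were -0.12 ± 0.18 at 5% (interval -0.51 to 0.28) and -0.11 ± 0.18 at 1% against control (interval -0.51 to 0.28). Of the 6 tested members of a list of other lysophospholipid acyltransferases, 0 passed in any diet comparison, where 0.224% to 2.72% of all genes passed. The smallest p was that of Mboat1 at 5% against control, -1.44 ± 0.68 (edgeR adjusted p = 0.348).

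**Figure D3:**
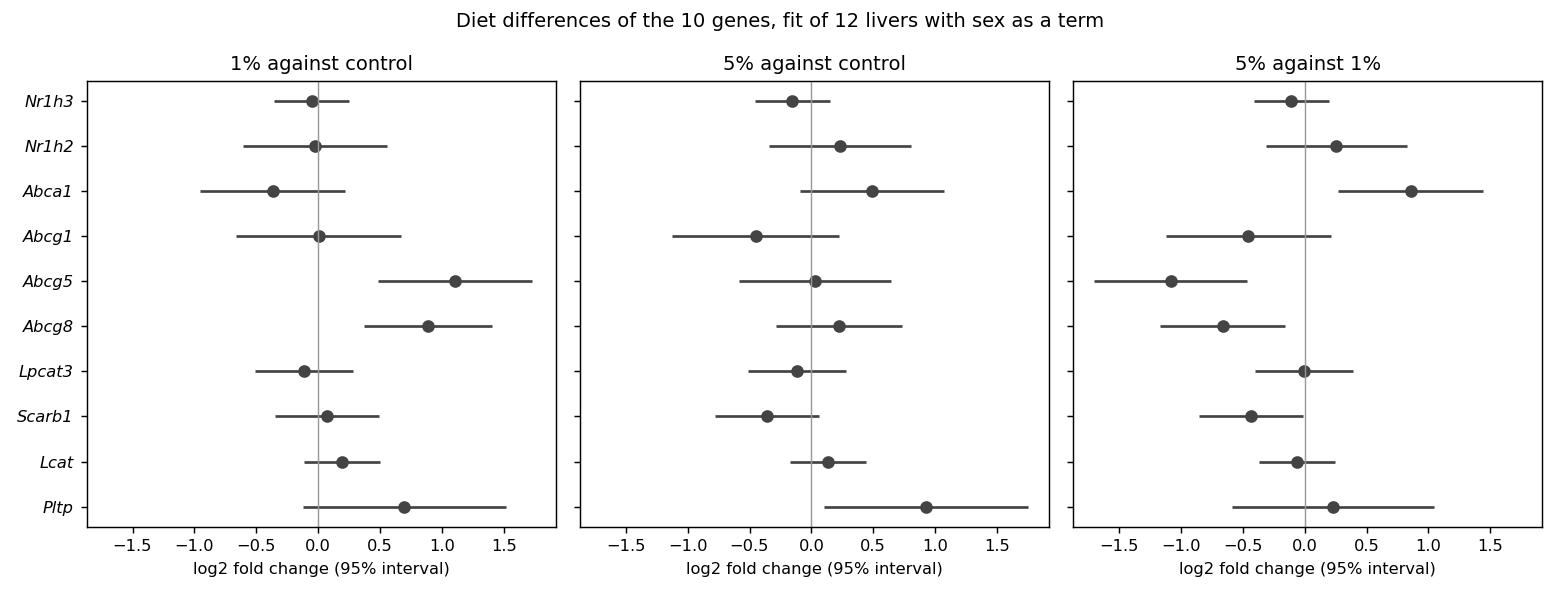
Log2 fold changes of the 10 genes (horizontal axis, points) with 95% intervals (lines) in 3 comparisons of diets, from edgeR's fit of 12 livers with sex as a term. Intervals leave 0 for Abcg5 and Abcg8 at 1% against control, for Pltp at 5% against control, and for Abca1, Abcg5, Abcg8 and Scarb1 at 5% against 1%, before adjustment over all genes.

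Among the HDL genes, Pltp had the widest spread between livers. It measured 37.9, 180, 82.6 and 54.1 CPM in controls, 171, 183, 123 and 98.6 at 1% and 120, 236, 154 and 146 at 5% oil. Female N980 stood at 180 CPM, and the other 3 controls lay below every liver fed oil. The difference was 0.92 ± 0.38 at 5% (interval 0.10 to 1.75, edgeR adjusted p = 0.279, unadjusted 0.0309) and 0.70 ± 0.38 at 1% against control (interval -0.13 to 1.52, edgeR adjusted p = 0.519). Without N980 the difference at 5% was 1.45 and passed (edgeR adjusted p = 0.0431).

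Scarb1, the HDL receptor, measured 114, 89.5, 71.3 and 61.7 CPM in controls, 81.3, 83.7, 97.8 and 84.8 at 1% and 81.4, 49.6, 61.5 and 66.0 at 5% oil. Only N987 of the 5% livers reached the range of the 1% livers. The difference was -0.43 ± 0.19 at 5% against 1% (interval -0.85 to -0.01, edgeR adjusted p = 0.265) and -0.36 ± 0.20 at 5% against control (interval -0.78 to 0.06, edgeR adjusted p = 0.435). Lcat measured 377, 325, 263 and 301 CPM in controls, 369, 415, 323 and 339 at 1% and 458, 345, 307 and 287 at 5% oil. The diets overlapped, with differences of 0.14 ± 0.14 at 5% (interval -0.17 to 0.44) and 0.20 ± 0.14 at 1% against control (interval -0.11 to 0.50).

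Between the sexes 0 of the 10 genes passed by edgeR, where 8.94% of all genes did, and 3 were under the unadjusted limit, against 28.7%. These were Lcat, higher in females by 0.33 ± 0.12 (edgeR adjusted p = 0.0864), Nr1h3 by 0.33 ± 0.12 (edgeR adjusted p = 0.0862) and Nr1h2 by 0.56 ± 0.22 (edgeR adjusted p = 0.115). DESeq2 and limma trend on the deposited CPM each passed 2 of the 10, Lcat and Nr1h3 in both. Over all genes they passed 15% and 11.4%. Limma voom passed 0 of the 10, and its share over all genes is not given here. Without control N980 Nr1h2 passed (0.66, edgeR adjusted p = 0.0325).

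Levels can be set beside each other only per length. As reads per kilobase of transcript, scaled as CPM, the median over 12 livers was 247 for Lcat, 74.7 for Pltp, 65.9 for Lpcat3, 44.6 for Abcg5, 42.5 for Nr1h3, 32.9 for Scarb1, 25.1 for Abcg8, 12.7 for Nr1h2, 8.20 for Abca1 and 0.795 for Abcg1. Lcat, at 196 or more in every liver, stood above the highest liver of any other gene (139, Pltp), and Abcg1, at 1.41 or less, below the lowest of any other (3.98, Abca1). The ranges of neighbours between these ends overlapped. Abcg5 went from 34.5 ± 10.4 (SD, n = 4) in controls to 73.8 ± 26.4 at 1% and 34.8 ± 11.4 at 5% oil, and Abcg8 from 19.5 ± 1.95 to 36.2 ± 14.6 and 23.3 ± 4.98.

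**Figure D4:**
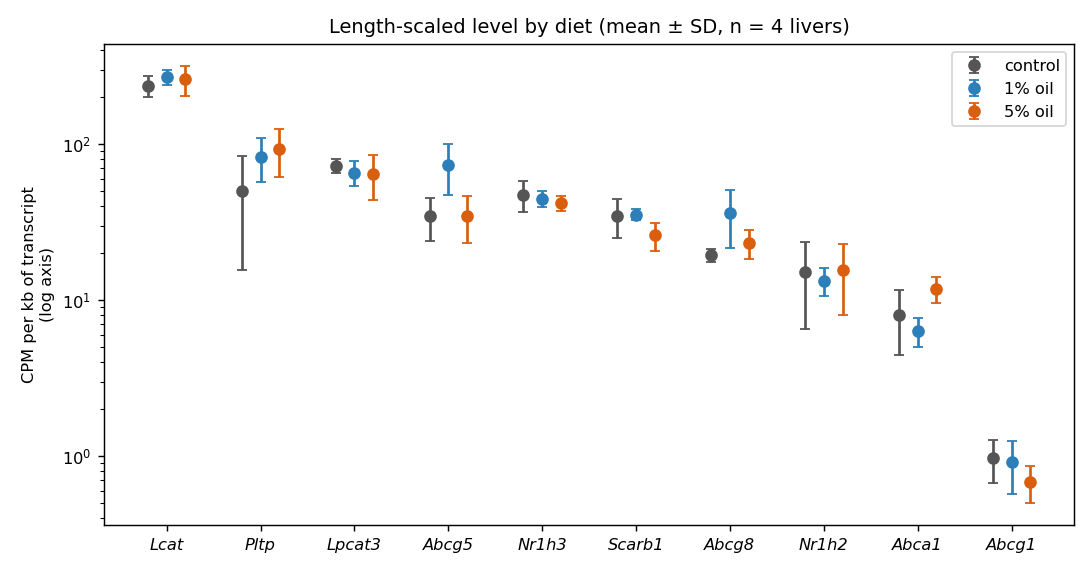
CPM per kilobase of transcript (vertical, log axis) of the 10 genes ordered by their median, as the mean ± SD of 4 livers per diet. Levels run from 247 for Lcat to 0.795 for Abcg1, as medians over the 12 livers.

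Single transcripts carried most reads of most of these genes. Abcg5-201 held a median of 91.0% of the reads of its gene over the 12 livers, Abcg8-201 96.4%, Abca1-201 100% and Pltp-201 94.9%, the last with a range from 25.6 to 99.2%. Nr1h3 was split between Nr1h3-201 (45.5%) and Nr1h3-202 (44.3%). For Nr1h2 estimated reads were spread over 14 of its 18 transcripts, with no stable leader. For Lpcat3 the most read of several retained-intron transcripts held 7.69%. Its protein-coding share had a median of 84.5%, with a range from 64.8 to 92.5%. These shares are estimates that divide reads among overlapping transcripts.

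The genes whose log2 CPM most resembled each member over the 12 livers, among all 13814 tested, are given as a description. For Abcg8 they were Nectin2 (r = 0.890), Rbpms (0.887) and Abcg5 (0.881), so that its partner was among them. For Abcg5 they were Gm4673 (r = 0.935), Pitpnm2os2 (0.934) and Cyp4f17 (0.923). The closest to Abca1 was Gpalpp1 (r = 0.959) and the closest to Lcat was Cdkn1c (0.950).

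Other genes of the same pathways were taken from lists chosen by name. Of 15 other LXR target genes 1 rose and 0 fell at 5% against control (2.46% of all genes passed), 0 passed at 1% against control (0.224%) or at 5% against 1% (1.33%), and 1 passed for any diet difference (2.72%). In both cases the gene was Lpl, lipoprotein lipase, which frees fatty acids from lipoproteins. It measured 9.11 to 19.4 CPM in controls, 23.7 to 210 at 1% and 79.7 to 149 at 5% oil (2.68 ± 0.50 at 5%, edgeR adjusted p = 0.0185). No liver fed oil overlapped the controls. Of all genes, 3.85% did not overlap at 1% against control and 6.1% at 5% against control. The call at 5% was lost without N979, N967, N968, N987 or N988, with adjusted p values of 0.0532 to 0.0760, and in the fit without a sex term (0.0698). For any diet difference (edgeR adjusted p = 0.0378) it was lost without any 1 of N979, N967, N968, N972, N987, N988, N975 and N976 (0.0510 to 0.125), without the sex term (0.116) and with the noncoding share (0.0672). Srebf1, which drives fat synthesis, and Fasn, the fatty acid synthase, are known LXR targets too and were picked out after their values were seen. Srebf1 differed by 0.91 ± 0.43 at 5% (edgeR adjusted p = 0.362) and -0.68 ± 0.42 at 1% (edgeR adjusted p = 0.577), and Fasn by -0.04 ± 0.47 and -2.09 ± 0.49 (edgeR adjusted p = 0.986 and 0.123). Of 7 LXR partners and coregulators 0 passed in any diet comparison, where 0.224% to 2.72% of all genes passed. The smallest p was that of Ncoa1 at 5% against 1%, 0.47 ± 0.18 (edgeR adjusted p = 0.184). Between the sexes 1 of the 7 passed (8.94% of all genes), Rxrb, an RXR that pairs with LXR, higher in females by 0.49 ± 0.14 (edgeR adjusted p = 0.0462).

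Of 10 HDL proteins and enzymes 1 rose and 2 fell at 5% against control (2.46% of all genes passed), 0 passed at 1% (0.224%), 1 fell at 5% against 1% (1.33%), and 1, Apof, passed for any diet difference (2.72%). Groups of 4 did not overlap for 6.1% of all genes at 5% against control and 7.68% at 5% against 1%. Apof, an inhibitor of lipid transfer between lipoproteins, measured 490 to 809 CPM in controls, 544 to 636 at 1% and 306 to 317 at 5% oil. It was lower in all 4 livers on 5% oil than in any other liver. It fell by 1.10 ± 0.15 on the log2 scale at 5% against control (edgeR adjusted p = 0.00282), a call that held with each liver left out in turn but not in males alone (edgeR adjusted p = 0.203). It also fell at 5% against 1% (-0.87 ± 0.15, edgeR adjusted p = 0.0238), a call lost without N983, N984, N971, N972, N987, N988 or N976 (adjusted p 0.0554 to 0.0857) and without the sex term (0.0825). Apoc3, an inhibitor of triglyceride clearance, fell (-0.89 ± 0.22) and Lipg, endothelial lipase, which breaks down HDL phospholipid, rose (1.62 ± 0.39), each with an edgeR adjusted p of 0.0499. The Apoc3 call was kept only without N980 or N967 and had adjusted p values up to 0.179 without the others (N979, N968, N983, N984, N971, N972, N987, N988, N975, N976). It was also lost with upper-quartile scaling (0.0548), without the sex term (0.207), with only the 2 diets compared (0.128), with limma voom (0.0569), with limma trend on the deposited CPM (0.113) and with transcript sums (0.0507). The Lipg call was kept only without N983, N984 or N971 and had values up to 0.152 without the others (N979, N980, N967, N968, N972, N987, N988, N975, N976). It was also lost with RLE scaling (0.0513), upper-quartile scaling (0.0519), no sex term (0.0755), the noncoding share (0.0593) and transcript sums (0.0507).

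Over all genes at 5% against control, 2.46% passed and 6.1% had groups of 4 livers that did not overlap. Of 12 tested genes of cholesterol uptake and storage, 1 rose and 0 fell in that comparison. The gene was Nceh1, a cholesterol ester hydrolase, which measured 11.2 to 24.1 CPM in controls and 27.2 to 39.8 at 5% oil, with no overlap between these diets (1.02 ± 0.22, edgeR adjusted p = 0.0280; lost without N979, N980, N968, N987 or N976, with adjusted p values of 0.0568 to 0.111, without the sex term, 0.0684, and with only the 2 diets compared, 0.0866). Osbp, an oxysterol-binding protein, rose at 5% against 1% oil (0.95 ± 0.20, edgeR adjusted p = 0.0390; lost without N967, N968, N983, N984, N971, N972, N987 or N976, with adjusted p values of 0.0502 to 0.140, and without the sex term, 0.134). Within each sex alone, 2 livers a diet, the calls of Apoc3, Lipg, Nceh1 and Osbp and that of Apof at 5% against 1% were lost in females and in males (edgeR adjusted p 0.0770 to 0.700), while that of Lpl at 5% against control held in both.

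**Figure D5:**
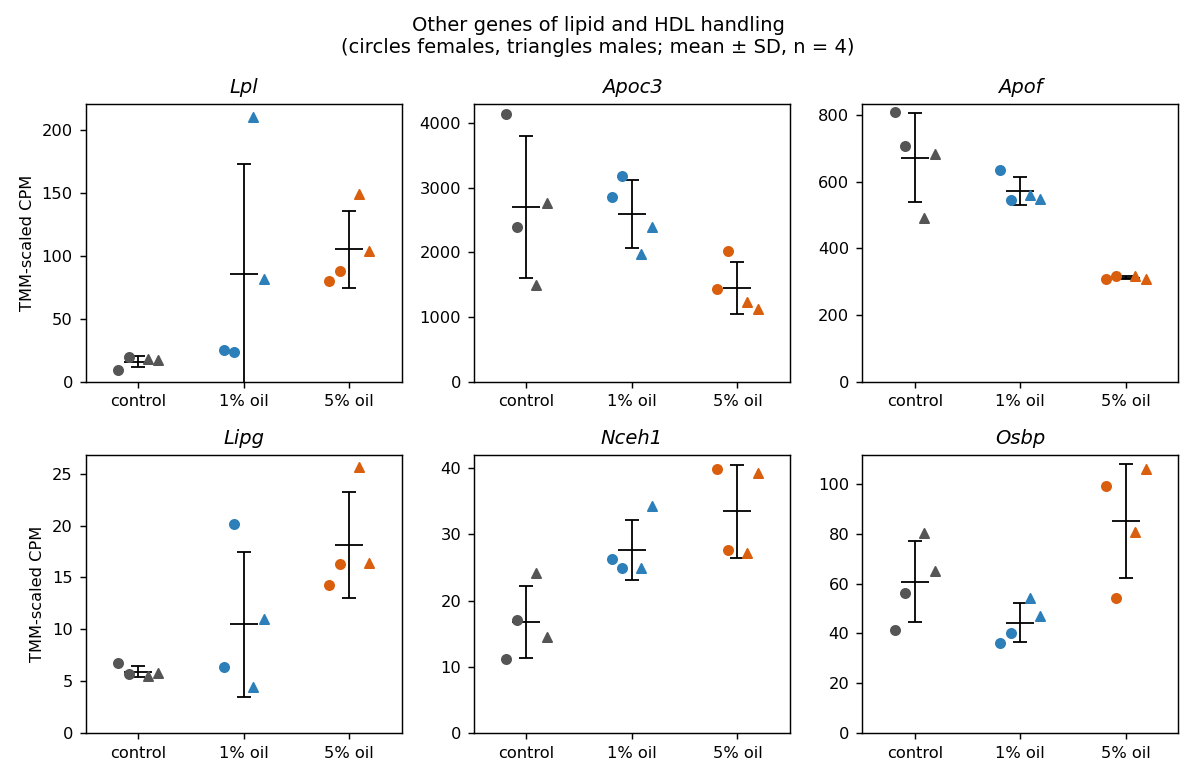
TMM-scaled CPM (vertical axes, each from 0) by diet for 6 other genes past the threshold in a diet comparison, Lpl, Apoc3, Apof, Lipg, Nceh1 and Osbp; circles are females, triangles males, bars and whiskers mean ± SD of 4 livers, and the lower whisker of Lpl at 1% oil ends at the axis. Apof is lowest at 5% oil, at 306 to 317 CPM.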

How the data were processed

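The deposited gene and transcript tables hold estimated counts per liver; kallisto, edgeR, limma and the build GRCm39 are named without roles or versions, per the submitters' processing notes. The authors' CPM table covers 11339 genes. The authors' deposited table of 261 genes, whose contrast is not named, gives log2 fold changes and p-values per the file headers; 0 of the 10 genes are in it, and its 12 per-sample columns were not used. The labels give 4 animal numbers per diet, so p-values measure the spread between these mice.

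Estimated counts were rounded and fitted with edgeR 4.0.16 (R 4.3.3) after filterByExpr by diet and sex (6 groups) and TMM scaling, in a robust quasi-likelihood fit of diet plus sex on 12 livers, 2-sided, with Benjamini-Hochberg adjustment over 13814 genes. Each SE came from dividing the log2 fold change by the root of its F statistic. A fit of the 6 groups gave effects within each sex. Symbols matched 48845 of 49398 IDs. Levels per length used GENCODE vM21 transcript lengths (137473 of 141450 transcripts matched), a release built on GRCm38, and RefSeq promoter windows are on GRCm38.p6; coordinates come from that table alone. Correlations used 100000 permutations, 2-sided, or, for centred values, all 64 swaps of livers within groups. Depth limits scarce genes most, and Abcg1 had 21 to 91 reads.

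The 10 genes, the gene and marker lists and the tests were chosen with earlier results of these data known. Named were all 10 genes, up to 4 members per list past the threshold by smallest p (otherwise the member with the smallest p), and the genes most like each of the 10. The lists were other LXR targets, HDL proteins, cholesterol uptake and storage, LXR partners, lysophospholipid acyltransferases and clock genes; some results of the uptake and storage list are not reported here. The alternatives were other scaling, filters, covariates and tests (DESeq2 1.42.0, limma 3.58.1 with voom, or with trend on log2 of the deposited CPM plus 0.5), transcript sums, and leaving out each liver.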

Additional observations from a re-analysis of the deposited data

How the results depend on the processing

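The counts of the 10 genes past the threshold, 0 in each comparison, were 0 under RLE and upper-quartile scaling, the filter of 50 reads in 4 livers, transcript sums and limma voom, and in the fits without a sex term or with only the diets compared wherever these were run. With no filter they were 1 at 5% against control, 2 at 1% against control, 3 at 5% against 1%, 4 for any diet difference and 2 between the sexes; with DESeq2 2 at 1%, 1 at 5% against 1%, 2 for any difference and 2 between the sexes; with the noncoding share as a term 1 in each of 1% against control, 5% against 1% and any difference; and with limma trend on the deposited CPM 2 between the sexes. Leaving out 1 liver gave 0 to 1 in each of these comparisons. Counts over all genes with no filter, with DESeq2 and with the noncoding share are given below. Those with that share are not given for 5% against control or for any diet difference. The fit with the noncoding share tested the same 13814 genes. With no filter more genes were tested, and their number is not given here, so those counts have no share beside them. The cause of these shifts was not tested.

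Over all genes, 340 passed at 5% against control; the count was 1011 with no filter, 107 without the sex term, 201 with only the diets compared, 749 with DESeq2 and 138 to 479 with 1 liver left out. At 1% against control 31 passed, with 649, 10, 53 and 266 under the same settings, 50 with the stricter filter, 74 with the noncoding share, 54 with limma trend and 13 to 184 with 1 liver left out. At 5% against 1% 184 passed, with 1276, 8, 306 and 699 under those 4 settings, 469 with the noncoding share, 280 with limma trend and 13 to 597 with 1 liver left out. For any diet difference 376 passed, with 1714 unfiltered, 102 without sex, 1073 with DESeq2 and 128 to 616 with 1 liver left out. Between the sexes 1235 passed, with 2375 unfiltered, 555 with the noncoding share, 2079 with DESeq2 and 594 to 2356 with 1 liver left out. Sex differences in response numbered 0, with 229 (5% oil) and 109 (1% oil) unfiltered, and 0 to 2 for each with 1 liver left out. Where 1 liver is left out, the lone liver of its sex and diet is assumed to vary like the others.

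Of 960 alternative log2 fold changes of the 10 genes (40 gene and comparison pairs), 62 had the opposite sign and none of these 62 was past the threshold; 22 gained a call. With upper-quartile scaling the sign turned for Abcg5 at 5% against control (-0.0019) and Nr1h2 at 1% against control (0.0079). With limma trend on the deposited CPM it turned for Nr1h3 (0.0022) and Lpcat3 (0.046) at 5% against control, Nr1h3 (0.027) and Nr1h2 (0.098) at 1% against control, and Lpcat3 (0.084) and Lcat (0.019) at 5% against 1%; with limma voom for Nr1h2 at 1% (0.035). It turned for Abcg1 at 1% against control without the sex term (-0.0043) and with only the diets compared (-0.0070), and for Lpcat3 at 5% against 1% with no filter (0.010) and with only the diets compared (0.0088). With the noncoding share it turned for Abcg5 at 5% against control (-0.090) and between the sexes (-0.25). In females alone Abcg5 (-0.23) and Abcg8 (-0.040) turned at 5% against control, Abcg1 (-0.26) and Scarb1 (-0.30) at 1% against control, and Lpcat3 (0.32) and Lcat (0.037) at 5% against 1%. In males alone Nr1h3 (0.021) turned at 5% against control, Nr1h3 (0.10), Nr1h2 (0.18) and Lpcat3 (0.18) at 1% against control, and Nr1h2 (-0.016) at 5% against 1%. The sex difference of Pltp in the response to 1% oil, 0.00084, was -0.018 with RLE, -0.040 with upper quartile, -0.055 with no filter, -0.017 with the stricter filter and -0.00012 with transcript sums.

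With 1 liver left out, signs turned within these ranges: at 5% against control Abcg5 (-0.14 to 0.25) and Lpcat3 (-0.25 to 0.058); at 1% against control Nr1h3 (-0.11 to 0.025), Nr1h2 (-0.21 to 0.27), Abcg1 (-0.32 to 0.18), Lpcat3 (-0.20 to 0.053) and Scarb1 (-0.041 to 0.22). At 5% against 1% they were Lpcat3 (-0.12 to 0.087) and Lcat (-0.16 to 0.0049), and between the sexes Abcg1 (-0.028 to 0.30) and Abcg5 (-0.080 to 0.27). For the sex difference in the response to 5% oil they were Nr1h2 (-0.35 to 0.93), Abca1 (-0.075 to 1.09), Abcg1 (-0.25 to 0.71), Lpcat3 (-0.25 to 0.39), Lcat (-0.10 to 0.32) and Pltp (-1.15 to 1.15), and for that to 1% oil Nr1h2 (-0.97 to 0.38), Abcg1 (-0.98 to 0.086), Lcat (-0.22 to 0.032) and Pltp (-0.72 to 1.52). The correlation of Abcg5 with Abcg8 ran from 0.782 to 0.910 with 1 liver left out and was 0.894 on the deposited CPM, settings added after the data were seen; centred within diet and sex it was 0.885 but no longer past the threshold. No paired analysis was possible because the replicate labels are animal numbers that no diets share.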
